A study of Drosophila melanogaster with 8 samples.

Results

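Peptidoglycan recognition proteins (PGRPs) are the proteins with which the fly detects and trims bacterial cell walls. The rule took the probe sets annotated to a single gene whose symbol or synonym is one of 9 named PGRP genes, and it found 6 of them, each with 1 probe set, among the 11983 genes measured. These are PGRP-SB1, PGRP-SC2, PGRP-LA, PGRP-LB, PGRP-LE and PGRP-LF, while PGRP-SA, PGRP-SD and PGRP-LC were not analysed here. They were measured in whole Drosophila melanogaster females of SZ, a composite Zimbabwe (Z strain) line bred from 6 isofemale lines with a strong preference for Z males. In ZxZ the females had mated once with SZ males, which they prefer, and in ZxM with males of LHM, an outbred Californian stock that represents the cosmopolitan M strain. All females were 7 days past eclosion, virgin until the experiment, and frozen 30 minutes after copulation ended. Each of the 4 arrays per group held RNA from a pool of 8 whole females. The comparison asks which female genes differ in level after mating with the more and the less preferred kind of male, and no unmated females are among the samples analysed here.

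In Drosophila, peptidoglycan reaches the humoral immune response through a pair of pathways named after their central components, Toll and IMD. The IMD pathway is triggered by peptidoglycan of the kind found in Gram-negative bacteria, which binds PGRP-LC at the cell surface or PGRP-LE inside the cell, and it ends in the NF-kappaB factor Relish and in the transcription of antimicrobial peptide genes. Other members hold the response down: PGRP-LB and PGRP-SC2 are amidases that cut the peptide from the sugar chain, and PGRP-LF is a membrane protein that competes with PGRP-LC without signalling. PGRP-SB1 is an amidase as well. The fat body, the gut and blood cells are the main places in which these proteins act. In RNA from whole flies, fewer cells of a type and less RNA per cell cannot be told apart.

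One of the 6 PGRP genes differed between the groups at 10% FDR. PGRP-LE was lower in ZxZ by 0.19 on the log2 scale, which makes its level in ZxM 1.14-fold that in ZxZ, and its groups did not overlap. The other 5 genes did not pass the test, with differences from -0.48 for PGRP-SB1 to -0.076 for PGRP-LA. All differences are ZxZ minus ZxM in log2 units, from limma with array weights fitted to the 5991 genes that vary most, and adjusted p-values are over those genes. Among all tested genes 18.7% were called, 17.6% lower in ZxZ and 1.1% higher, and 74.1% had a negative difference. A single call among 6 genes, and 6 negative differences, are therefore read against a background in which most genes were slightly lower in ZxZ. The median difference was -0.14 over the 6 PGRP genes and -0.094 over all tested genes.

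PGRP-LE, which lies on the X chromosome, is the intracellular sensor of the family and binds small fragments of peptidoglycan that enter cells of the gut. Its log2 level was 9.81, 9.79, 9.72 and 9.70 in ZxZ replicates 1 to 4, and 9.88, 9.94, 10.05 and 9.95 in ZxM replicates 1 to 4. Every ZxZ array lay below every ZxM array, with a gap of 0.070 between the highest ZxZ and the lowest ZxM value. The means were 9.75 ± 0.054 in ZxZ and 9.95 ± 0.068 in ZxM (SD, n = 4 each). The fitted difference was -0.19 (SE 0.052, 95% confidence interval -0.31 to -0.077, adjusted p = 0.0874 from limma). Of the tested genes, 3.97% had a smaller unadjusted p, for 12.1% all ZxZ arrays lay below all ZxM arrays, and for 1.02% all lay above. Among the 946 tested genes of the X, 24.6% were called lower in ZxZ. Among the 1443 tested genes with a mean level within 0.5 of that of PGRP-LE, 31.7% were, so that a call of this kind was common both on its chromosome and at its level. Leaving out 1 array ended the call in 4 of 8 cases, with an adjusted p from limma of 0.253 without ZxZ replicate 3, 0.234 without ZxZ replicate 4, 0.146 without ZxM replicate 1 and 0.246 without ZxM replicate 3. In these 4 cases 0 genes were called over the whole array. Without ZxM replicate 1 the difference of PGRP-LE was -0.21, with an unadjusted p from limma of 0.00204, against 0.00359 with all arrays. With the replicate number as a block PGRP-LE was also not called (-0.18, adjusted p = 0.145), and 1 gene was over the whole array.

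The upper part of the distribution of values moved with the group as well, while the middle did not move the same way. The upper quartile (75th percentile) of an array lay at 9.45 to 9.53 in ZxZ and at 9.54 to 9.63 in ZxM (two-sided exact permutation p = 0.0286, below which 4 arrays against 4 cannot go, and 0.0571 adjusted over 2 array measures). The median of an array's values was 7.27 to 7.31 in ZxZ and 7.23 to 7.29 in ZxM (exact permutation test, p = 0.114). After quantile normalization PGRP-LE differed by -0.095 (95% confidence interval -0.18 to -0.0060, adjusted p = 0.505 from limma), and limma called 0 genes of the whole array, with 584 at an unadjusted p under 0.05. The differences of PGRP-LB (-0.11), PGRP-LF (-0.13) and PGRP-SB1 (-0.25) were then larger than that of PGRP-LE. Scaled to a common 75th percentile, PGRP-LE differed by -0.0996 (adjusted p = 0.269 from limma), and 0 genes were called over the whole array. With arrays centred on their medians it differed by -0.23 and was called (adjusted p = 0.0427 from limma), as were 2500 of the 5991 tested genes. The call on PGRP-LE, like the number of calls over the whole array, thus depended on which part of the distribution was set equal.

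**Figure D1:**
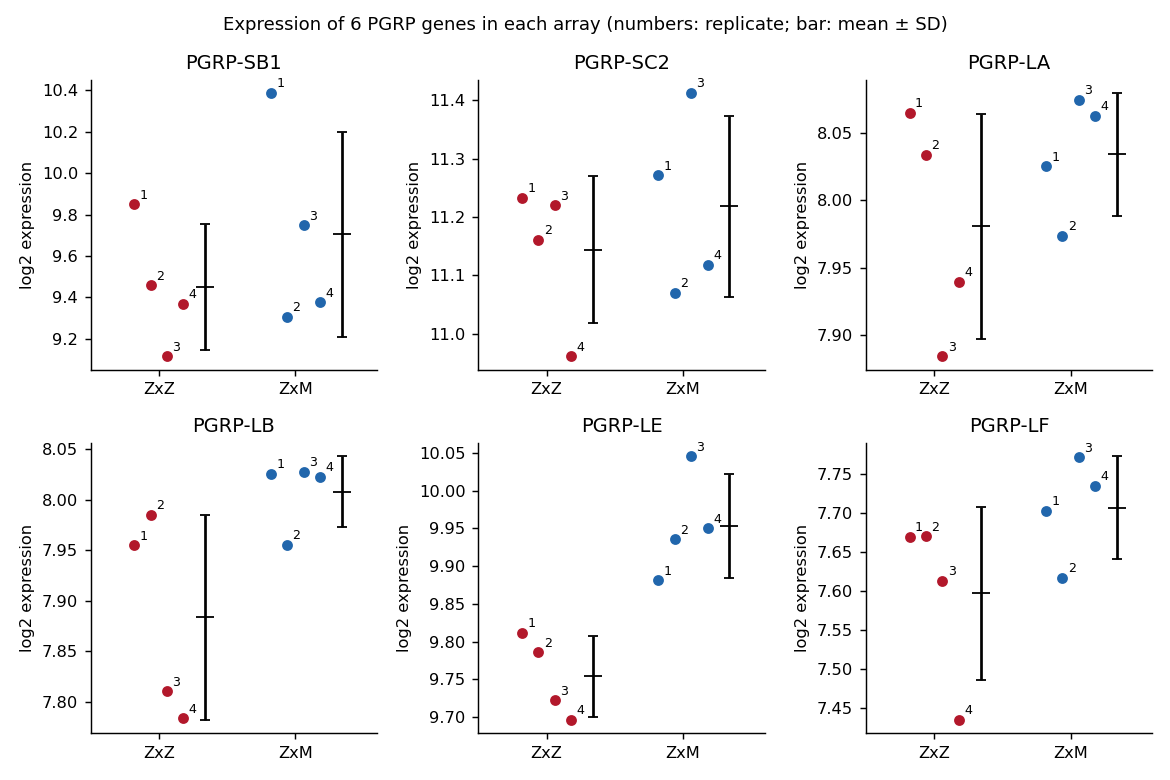
Log2 expression (y axis, a range of its own in each panel) of the 6 PGRP genes in the 4 ZxZ arrays (red) and the 4 ZxM arrays (blue), with replicate numbers beside the points and the mean ± SD beside each group. PGRP-LE is the gene whose groups do not overlap, with ZxZ arrays at 9.70 to 9.81 and ZxM arrays at 9.88 to 10.05.

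PGRP-LA is known as a regulator of the IMD pathway in the airways and the gut, and is not thought to bind peptidoglycan itself. Its values were 8.06, 8.03, 7.88 and 7.94 in ZxZ replicates 1 to 4, and 8.03, 7.97, 8.07 and 8.06 in ZxM replicates 1 to 4. The groups overlapped, with ZxZ replicate 1 among the highest values and ZxZ replicates 3 and 4 the lowest. The difference was -0.076 (SE 0.054, 95% confidence interval -0.19 to 0.043, adjusted p = 0.309 from limma), the smallest of the 6, and it was 0.028 when arrays were scaled to the 75th percentile. Single arrays moved it, to -0.12 without ZxZ replicate 1, where it passed (adjusted p = 0.0871 from limma) and 2577 of the 5991 tested genes were called. It moved to -0.0078 without ZxZ replicate 3 (adjusted p = 0.943) and to -0.032 without ZxZ replicate 4 (adjusted p = 0.756). At its level 8.45% of tested genes were called lower in ZxZ. PGRP-LA, PGRP-LC and PGRP-LF follow one another on chromosome 3L, as RefSeq orders genes on Release 6 plus ISO1 MT.

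PGRP-LF, the membrane protein that restrains PGRP-LC, was at 7.67, 7.67, 7.61 and 7.43 in ZxZ replicates 1 to 4. In ZxM replicates 1 to 4 it was at 7.70, 7.62, 7.77 and 7.74. ZxZ replicate 4 was the lowest array, and ZxM replicate 2 lay within the range of ZxZ. The difference of -0.12 (SE 0.061, 95% confidence interval -0.26 to 0.011, adjusted p = 0.169 from limma) did not pass, and it was of like size after quantile normalization, at -0.13, with an adjusted p of 0.508. At its level 4.37% of tested genes were called lower in ZxZ, the smallest background of the 6.

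Of the amidases, PGRP-LB came closest to the threshold. PGRP-LB removes peptidoglycan before it can signal, and is known to limit the IMD response in the gut and in the blood. It was at 7.95, 7.99, 7.81 and 7.78 in ZxZ replicates 1 to 4, and at 8.03, 7.96, 8.03 and 8.02 in ZxM replicates 1 to 4. ZxZ replicates 3 and 4 stood below all other arrays, while ZxM replicate 2 fell among ZxZ replicates 1 and 2, so the groups overlapped. The means were 7.88 ± 0.10 in ZxZ and 8.01 ± 0.035 in ZxM (SD, n = 4 each), with a difference of -0.15 (SE 0.056, 95% confidence interval -0.27 to -0.028, adjusted p = 0.103 from limma). At its level 7.59% of tested genes were called lower in ZxZ, a smaller background than at the level of PGRP-LE. Leaving out 1 array brought it past the threshold in 4 of 8 cases, with an adjusted p of 0.0423 without ZxZ replicate 1, 0.0661 without ZxZ replicate 2, 0.0800 without ZxM replicate 2 and 0.0541 without ZxM replicate 4. Calls were common in these 4 cases, with 2577, 2009, 2122 and 2844 of the 5991 tested genes called, in the same order. The difference of PGRP-LB shrank to -0.085 without ZxZ replicate 3 (adjusted p = 0.422) and to -0.087 without ZxZ replicate 4 (adjusted p = 0.380). After quantile normalization the difference was -0.11 and the adjusted p 0.508.

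PGRP-SC2 is an amidase of the gut, where it helps to keep the response to resident bacteria in check. It was at 11.23, 11.16, 11.22 and 10.96 in ZxZ replicates 1 to 4, and at 11.27, 11.07, 11.41 and 11.12 in ZxM replicates 1 to 4. The groups overlapped widely, and the difference was -0.089 (SE 0.080, 95% confidence interval -0.26 to 0.087, adjusted p = 0.417 from limma). Its sign depended on the scaling, since the difference was 0.020 after quantile normalization. Without ZxM replicate 1 it was -0.0051 and without ZxM replicate 3 -0.0069. At its level 24.1% of tested genes were called lower in ZxZ. Of the 8 measured midgut markers, mostly digestive enzymes, all 8 were tested and none was called, against 18.7% of all tested genes. Their mean level was 11.43 to 11.83 in ZxZ and 11.59 to 11.94 in ZxM. So few markers cannot show whether the amount of midgut tissue differed between the groups.

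**Figure D2:**
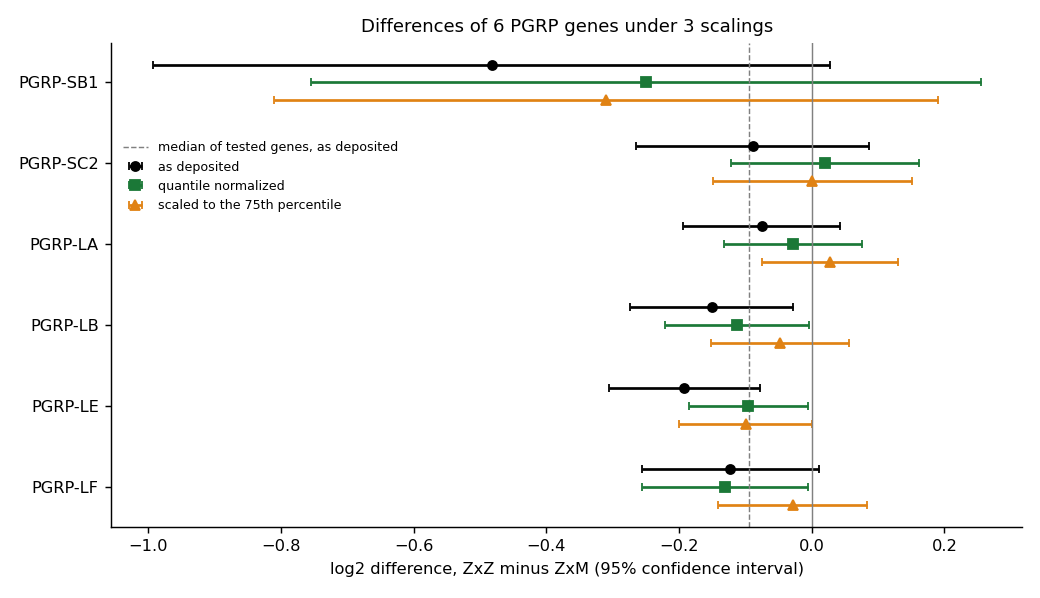
Log2 difference, ZxZ minus ZxM (x axis), of each PGRP gene with its 95% confidence interval, for the values as deposited (black), after quantile normalization (green) and scaled to the 75th percentile (orange), with the median of all tested genes as deposited (-0.094) as a dashed line. The interval of PGRP-LE runs from -0.31 to -0.077 as deposited and from -0.18 to -0.0060 after quantile normalization. After quantile normalization the intervals of PGRP-LB (-0.22 to -0.0042) and PGRP-LF (-0.26 to -0.0056) also lie below 0. PGRP-SB1 has the widest intervals.

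PGRP-SB1, an amidase that is released into the blood and whose transcription rises on infection, varied most between pools. It was at 9.85, 9.46, 9.12 and 9.37 in ZxZ replicates 1 to 4, and at 10.39, 9.31, 9.75 and 9.38 in ZxM replicates 1 to 4. Replicate 1 was the highest array of each group, and the remaining arrays of ZxZ and ZxM overlapped. The range over the 8 arrays was 1.27, against 0.19 to 0.45 for the other 5 PGRP genes. The means were 9.45 ± 0.30 in ZxZ and 9.70 ± 0.49 in ZxM (SD, n = 4 each), 0.26 lower in ZxZ. The fit gave -0.48 (SE 0.23, 95% confidence interval -0.99 to 0.028, adjusted p = 0.160 from limma), with array weights of 1.75 for ZxM replicate 1, the highest value, 1.61 for ZxZ replicate 3, the lowest, and 0.505 for ZxM replicate 2. Without ZxM replicate 1 the difference was -0.024 (adjusted p = 0.932 from limma), so that its size rested on that pool, while it passed at -0.84 without ZxM replicate 4 (adjusted p = 0.0285), at -0.66 without ZxZ replicate 1 (0.0585) and at -0.65 without ZxM replicate 2 (0.0795). In the cases where it passed, 2844, 2577 and 2122 of the 5991 tested genes were called, in the same order. At the level of PGRP-SB1 29.7% of tested genes were called lower in ZxZ. With the replicate number as a block the difference of PGRP-SB1 was -0.30 (SE 0.11, adjusted p = 0.155 from limma). Its unadjusted p from limma was then 0.0215, against 0.0617 without the block.

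The pools in which PGRP-SB1 was highest were also the highest for Mtk, DptB and BomS2 among the 7 antimicrobial peptide genes measured. They were so for AttD as well, by a narrow margin. Mtk, which encodes the antifungal peptide Metchnikowin, was at 9.32, 8.40, 7.96 and 7.89 in ZxZ replicates 1 to 4, and at 11.65, 8.42, 8.68 and 7.99 in ZxM replicates 1 to 4. DptB, which encodes a Diptericin of the IMD response, was at 8.34 in ZxZ replicate 1 and at 7.26 to 7.43 in the other ZxZ arrays. It was at 9.45 in ZxM replicate 1 and at 7.33 to 7.36 in the other ZxM arrays. For both peptide genes, as for PGRP-SB1, replicate 1 stood above the rest of its group, and more so in ZxM. BomS2, a Bomanin of the Toll response, had its 2 highest values in the same pools, at 11.64 in ZxZ replicate 1 and 11.74 in ZxM replicate 1. Drs, which encodes Drosomycin, did not have its highest values there, with 13.32 in ZxZ replicate 1 and 13.30 in ZxM replicate 1 inside the range of the other arrays (r with PGRP-SB1 0.56 and rho 0.71, exact permutation p = 0.145 and 0.0576, adjusted p = 0.710 and 0.403). AttD, an Attacin, varied too little to be tested between the groups. It was at 6.831 in ZxZ replicate 1 and 6.795 in ZxM replicate 1, and the next highest array was ZxM replicate 3 at 6.791. AttD gave r = 0.64 with PGRP-SB1, while CecB, a Cecropin, gave -0.20 and Def, which encodes Defensin, -0.19. None of these relations passed (rho 0.76, -0.17 and -0.40, exact permutation test, adjusted p from 0.386 to 0.923). Def was at 8.11 in ZxZ replicate 1, the lowest of ZxZ, and at 8.09 in ZxM replicate 1.

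Over the 8 arrays PGRP-SB1 correlated with Mtk at r = 0.94 (Spearman's rho 0.81, exact permutation p = 0.000868 and 0.0218, adjusted p = 0.0365 and 0.305). With DptB r was 0.91 (rho 0.81, exact permutation p = 0.00340 and 0.0218, adjusted p = 0.0476 and 0.305). With BomS2 r was 0.87 (rho 0.86, exact permutation p = 0.00332 and 0.0107, adjusted p = 0.0476 and 0.305). Within the groups these r were 0.93 for Mtk in ZxZ and 0.95 in ZxM, 0.93 and 0.92 for DptB, and 0.90 and 0.86 for BomS2. Without ZxZ replicate 1 and ZxM replicate 1 they were 0.72, 0.45 and 0.59, so the relation rests largely on that pair of pools. It was computed after the values had been seen, as part of 42 relations between the 6 PGRP genes and 7 peptide genes, and no other relation passed an adjusted p of 0.05. The differences between the groups did not pass for these peptide genes, at -1.44 (SE 0.74) for Mtk, -0.72 (SE 0.48) for DptB and -0.39 (SE 0.21) for BomS2, with adjusted p of 0.183, 0.282 and 0.198 from limma. Of the 8 measured blood cell markers 4 were tested and none was called, against 18.7% of all tested genes. The mean level of the 8 was 7.79 to 7.95 in ZxZ and 7.75 to 7.91 in ZxM. Of the 8 fat body markers 6 were tested and none was called, with a mean level over the 8 of 9.76 to 10.09 in ZxZ and 9.71 to 10.05 in ZxM. That mean includes Fbp1 (7.07 in ZxZ and 6.99 in ZxM) and Fbp2 (6.80 and 6.81), low on the scale of the table. It also includes Lsp2, which ran from 8.86 to 10.89 within ZxZ. So few markers cannot show whether the amount of these tissues differed between the groups.

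**Figure D3:**
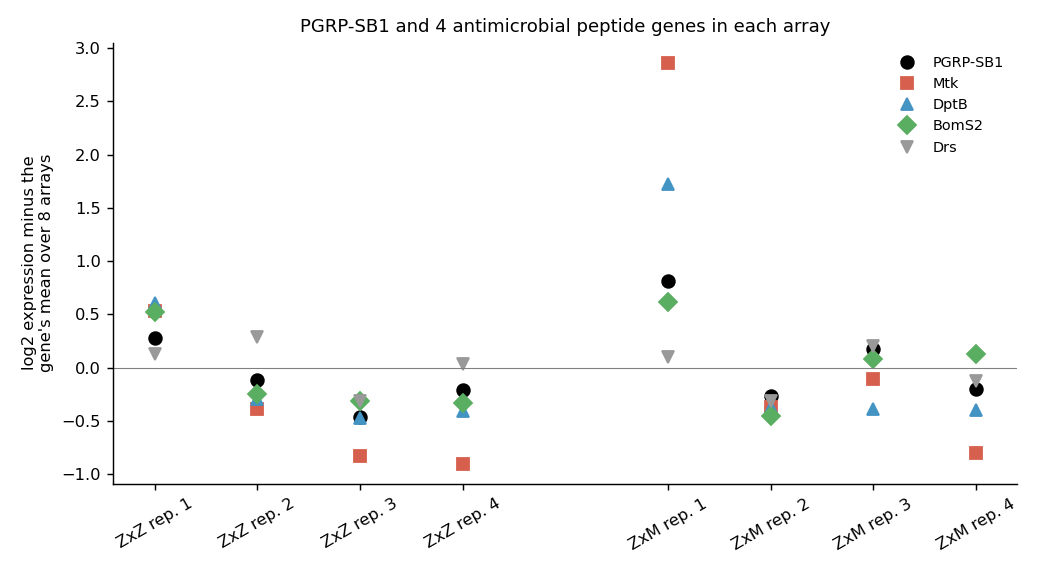
Log2 expression of PGRP-SB1 (black) and of the peptide genes Mtk, DptB, BomS2 and Drs in each array (x axis), given as the deviation from the gene's own mean over the 8 arrays (y axis). ZxZ replicate 1 and ZxM replicate 1 hold the highest values of PGRP-SB1, Mtk, DptB and BomS2, and the highest Drs value lies elsewhere.

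As deposited, the values of the 6 PGRP genes correlated positively from pool to pool, to differing degrees. The Pearson correlation over the 8 arrays was positive for all 15 pairs, from 0.30 to 0.88, and was positive for all 15 after each group's mean was removed. For PGRP-SB1 and PGRP-LE it was then 0.013, and -0.36 within ZxM. No share of positive correlations over other tested genes is given for comparison. After quantile normalization it ran from -0.35, between PGRP-SC2 and PGRP-LA, to 0.81. It was then also negative for PGRP-SC2 with PGRP-LB and PGRP-LE, and for PGRP-SB1 with PGRP-LE. As deposited the correlation was highest between PGRP-LB and PGRP-LF, at r = 0.88 and rho = 0.95 (exact permutation p = 0.000273 and 0.00114, adjusted over the 15 pairs p = 0.00409 and 0.0171). This pair correlated at 0.82 within ZxZ, 0.91 within ZxM and 0.81 after quantile normalization, and at 0.87 without the 2 arrays farthest from the median of PGRP-LB. It was the pair that passed an adjusted p of 0.05, while the chromosomal neighbours PGRP-LA and PGRP-LF gave r = 0.72 and rho = 0.81 (exact permutation p = 0.0374 and 0.0218, adjusted p = 0.0936 and 0.0817). The arrays share their overall scaling, which moves every gene of an array. The group differences themselves were compared between PGRP genes as well. Of the 15 pairs, PGRP-LA against PGRP-LE (0.15) and PGRP-LA against PGRP-LB (0.071) had an exact permutation p of 0.0286, the smallest the design allows, with an adjusted p of 0.214. Since no pair can go below this p, a few pairs alone could not pass the adjustment, and a difference between these genes is not excluded by this test.

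Among the 11982 other genes measured, the 3 whose values followed PGRP-LE most closely over the 8 arrays were Prp4k, which encodes a kinase of pre-mRNA splicing (Pearson's r = 0.99), CG5808 (0.98) and Cip4, a regulator of membrane curvature and actin (0.98). After quantile normalization these r were 0.90, 0.91 and 0.88. Such likeness was common, since 252 genes had an r over 0.9 with PGRP-LE. The corresponding genes for PGRP-SB1, looked up after its values had been seen, were CG11858 (0.98), CG31706 (0.97) and Tspo, the translocator protein of mitochondria (0.96), and 41 genes had an r over 0.9. After quantile normalization these were 0.78, 0.97 and 0.61.

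**Figure D4:**
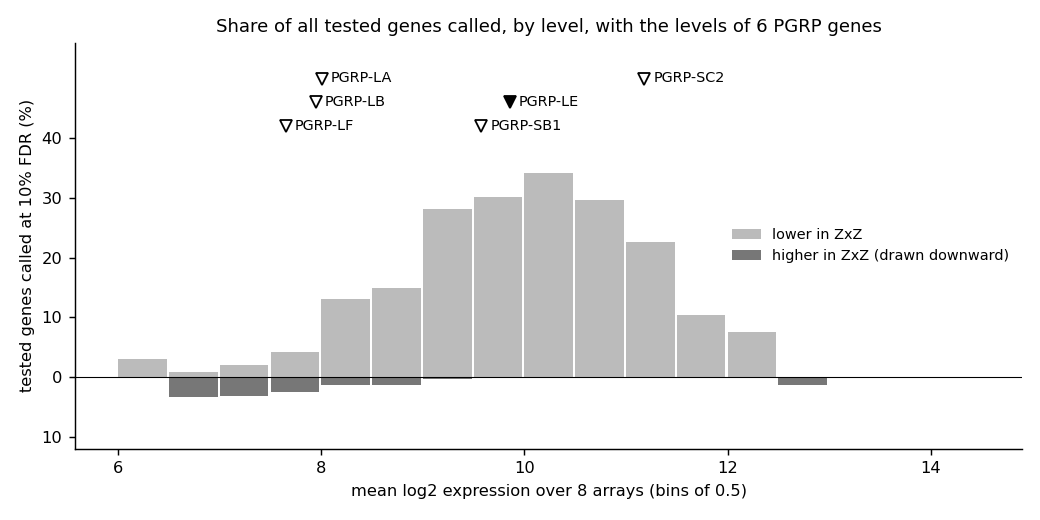
Share of all tested genes called at 10% FDR (y axis, in percent, lower in ZxZ upward and higher in ZxZ downward) in bins of 0.5 of the mean log2 expression over the 8 arrays (x axis), with triangles at the levels of the 6 PGRP genes at arbitrary heights, filled for the one called. PGRP-LE and PGRP-SB1 lie where 30.2% of the genes were called lower, and PGRP-LA, PGRP-LB and PGRP-LF where 4.2% to 13.1% were.

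Of the other recognition genes, 3 of 7 were measured and 1 was tested. This was GNBP3, which senses fungal glucans upstream of Toll, at 8.82 ± 0.060 in ZxZ and 8.79 ± 0.0999 in ZxM (SD, n = 4 each), with a difference of 0.0069 (SE 0.060, adjusted p = 0.939 from limma). PGRP-SB2, the neighbour of PGRP-SB1 on 3L, varied too little to be tested, at 6.98 to 7.21 in ZxZ and 7.05 to 7.07 in ZxM.

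The IMD pathway, into which PGRP-LE feeds, had 15 of 17 listed genes measured and 11 tested. None was called, against 18.7% of all tested genes. All 11 tested differences were negative, against 74.1% of all tested genes, and their median was -0.12, against -0.094. An unadjusted p from limma under 0.05 was found for 7 of the 11, against 35% of all tested genes. These shares cover all levels, while the share called lower in ZxZ varied with level, up to 34.2% between 10 and 10.5. Pirk, an inhibitor that binds PGRP-LC and PGRP-LE, had the largest difference of those with the smallest p. Its gene pirk was at 8.18, 8.18, 8.08 and 7.86 in ZxZ replicates 1 to 4, and at 8.21, 8.36, 8.46 and 8.23 in ZxM replicates 1 to 4. The groups did not overlap, by a narrow margin, with all ZxZ arrays below all ZxM arrays, as for 12.1% of all tested genes. The difference of pirk was -0.22 (SE 0.081, adjusted p = 0.103 from limma). The ubiquitin-conjugating enzyme gene ben differed by -0.16 (SE 0.061, adjusted p = 0.103), the ubiquitin ligase gene Diap2 by -0.16 (SE 0.059, adjusted p = 0.104) and key, a subunit of the IKK kinase, by -0.12 (SE 0.048, adjusted p = 0.115). After quantile normalization the median of the 11 genes was -0.023, and pirk differed by -0.18 (adjusted p = 0.481).

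The Toll pathway had 16 of 17 listed genes measured and 10 tested, and the test called 2 of these, both lower in ZxZ, a share near the 17.6% called lower among all tested genes. Myd88, the adaptor of the Toll receptor, was at 9.50 to 9.64 in ZxZ and 9.70 to 9.73 in ZxM and differed by -0.15 (SE 0.046, adjusted p = 0.0888 from limma). Pli, which encodes Pellino, a ubiquitin ligase acting on the receptor complex, was at 9.08 to 9.25 in ZxZ and 9.27 to 9.42 in ZxM and differed by -0.17 (SE 0.056, adjusted p = 0.0903). Neither gene's groups overlapped, and all ZxZ arrays lay below all ZxM arrays for 12.1% of all tested genes. Traf6, at -0.16 (adjusted p = 0.108), and the kinase gene Gprk2, at -0.16 (adjusted p = 0.109), did not pass. The median of the 10 genes was -0.15, and -0.051 after quantile normalization, where none of them was called. Of 17 antimicrobial peptide genes, the targets of both pathways, 7 were measured and 5 were tested. None was called, against 18.7% of all tested genes. Def differed by 0.072 (SE 0.14, adjusted p = 0.721).

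**Figure D5:**
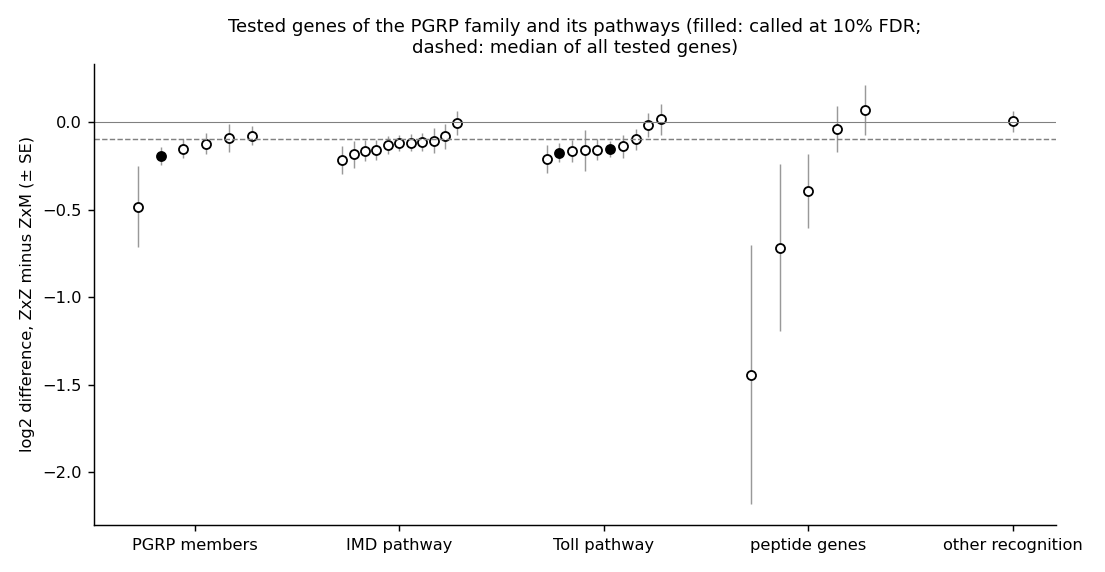
Log2 difference, ZxZ minus ZxM, with its SE (y axis) for the tested PGRP genes, IMD pathway genes, Toll pathway genes, antimicrobial peptide genes and GNBP3 (x axis, ordered by size within each list), with called genes filled and the median of all tested genes (-0.094) as a dashed line. All 6 PGRP genes and all 11 IMD pathway genes lie below 0, as did 74.1% of all tested genes. Most of them lie close to the dashed line, and the widest errors belong to peptide genes.

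Over the series as a whole, pairs of arrays correlated at 0.996 to 0.998 (28 pairs, none identical, across probe sets, which are not independent replicates), and array weights ran from 0.505 to 1.75. The 3 yolk protein genes, which mark females, averaged 14.75 to 14.91 in ZxZ and 14.57 to 14.78 in ZxM. Of these 3 genes, all tested, 1 was called higher in ZxZ, against 1.1% of all tested genes. The 8 eggshell genes averaged 12.80 to 13.71 in ZxZ and 13.18 to 13.87 in ZxM, and none was called, against 18.7% of all tested genes. The 11 genes of the male accessory gland averaged 6.59 to 6.63 in ZxZ and 6.56 to 6.61 in ZxM, near the lowest value of the table (6.05), with 1 of 4 tested called higher in ZxZ. The part of these tissues in the PGRP differences was not tested.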

How the data were processed

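RNA from 8 pools was hybridised to Affymetrix Drosophila Genome 2.0 arrays, 1 per pool. The labels call the pools biological replicates. The authors deposited values on a generalised log2 scale, which compresses differences at low levels: probe intensities were calibrated across arrays with VSN and combined into probe sets as in RMA (affy, R 2.8.1). Detection calls were not used, and precision is limited by how many arrays there are. Of 18952 probe sets, 13647 have 1 gene in the platform annotation supplied, with symbols updated by Entrez number, and 402, those of PGRP-SC1a and PGRP-LD among them, have several and were not used. As in the methods, the probe set of largest variance stood for each gene. The methods' variability limit of 0.5 was read as a quantile, so the upper 50% by interquartile range (over 0.0908) were tested. Read as a range of 0.5 log2 units it leaves 51 genes and no PGRP gene. All 6 PGRP genes passed this filter. The transcripts of a gene were not told apart, and which of them its probe set detects was not examined. RefSeq lists 6 transcripts for PGRP-LB, 5 for PGRP-LA and 2 for PGRP-LE.

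The fit used limma 3.58.1 in R 4.3.3 (lmFit with REML arrayWeights, then eBayes, two-sided, with Benjamini-Hochberg adjustment and a threshold of 10% FDR), ZxZ minus ZxM over 8 arrays. It was tried on simulated data in which genes varied independently and arrays did not differ as a whole. That trial cannot tell whether the 10% FDR holds for these arrays. Single values were compared by exact permutation of the arrays. Named are all 6 PGRP genes, up to 4 genes of smallest p per pathway list, and the 3 genes most correlated with each called PGRP gene. The genes and lists were chosen with earlier results of these data known. Alternatives changed the weights, filters, probe set, scaling, variance moderation, pairing and the arrays included.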

Additional observations from a re-analysis of the deposited data

Results flagged for a closer look

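PGRP-LB had 1 array far from the others of its group. In ZxM replicate 2 its log2 level was 7.96, while the other 3 ZxM arrays lay between 8.02 and 8.03, so that the gap took up most of the range of the group. Of the 12 groups of 4 arrays examined for the 6 PGRP genes this was the only one, and chance alone gives such a gap in about 5% of groups. Without this array PGRP-LB differed by -0.16 (adjusted p = 0.0800 from limma), against -0.15 (adjusted p = 0.103) with it. Over all tested genes 2122 were called without this array, against 1123 with it. ZxM replicate 2 also had the lowest array weight, 0.505.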

How the results depend on the processing

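The negative difference of PGRP-LE was kept under all 19 alternatives, and its call under 8 of them. It was not called without array weights (-0.20), without the variability filter (-0.18), with every probe set tested (-0.18), after quantile normalization (-0.095), scaled to the 75th percentile (-0.0996, chosen after seeing the data), with the replicate number as a block (-0.18) or by the methods' t-test taken without weights and moderation (-0.20), and adjusted p ran from 0.0421 to 0.505. PGRP-LB was called with the lowest 25% of probe sets left out (-0.15), with the brightest probe set per gene (-0.15) and with arrays centred on the median (-0.19), and the last setting also called PGRP-LF (-0.17) and PGRP-SB1 (-0.56). Scaling to the 75th percentile turned PGRP-LA to 0.028 and PGRP-SC2 to 0.00088 and moved the PGRP median to -0.038, and quantile normalization turned PGRP-SC2 to 0.020. The cause of these changes was not tested.

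Of the PGRP genes, 0 were called without weights, without the filter, with every probe set, under quantile normalization, 75th percentile scaling, the block or the t-test (unadjusted p under 0.05 for 1, 2, 2, 3, 0, 3 and 1), 2 with the low probe sets left out or the brightest probe set, and 4 with centring. Over all genes 1123 were called as reported, 0 without weights, without the filter, with the interquartile range set to 0.5 or more, with every probe set, under quantile normalization or 75th percentile scaling (unadjusted 1365, 2529, 5, 2718, 584 and 1122), 1 with the block, 10 by the t-test and 2500 with centring. With the low probe sets left out 1474 of 5070 tested genes were called, and with the brightest probe set 1353 of 5991. The 2 Toll pathway calls became 0 without weights, without the filter and under quantile normalization.

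Leaving out 1 array, with probe sets and tested genes held, gave 0 to 2844 calls over all genes and 0 to 4 PGRP calls. No gene was called without ZxZ replicate 3, ZxZ replicate 4, ZxM replicate 1 or ZxM replicate 3, and 2577, 2009, 2122 and 2844 were without ZxZ replicate 1, ZxZ replicate 2, ZxM replicate 2 and ZxM replicate 4, with 4, 2, 3 and 3 PGRP calls. The differences ran from -0.21 to -0.16 (PGRP-LE), -0.19 to -0.085 (PGRP-LB), -0.15 to -0.059 (PGRP-LF), -0.12 to -0.0078 (PGRP-LA), -0.84 to -0.024 (PGRP-SB1) and -0.13 to -0.0051 (PGRP-SC2), and the PGRP median from -0.17 to -0.073. The matings were run in replicates that held both groups, but the sources do not say that array numbers mark them. Same-numbered arrays did not deviate together throughout (correlations -0.23 to 0.16, with ZxZ replicates 1 and 4 closest to their own number), so pairing was not assumed. An interquartile range of at least 0.5 left no PGRP gene, and PGRP-LF was not tested with the low probe sets left out.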
